A study of Homo sapiens with 6 samples.

Results

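The genes described here are the 38 rows of a human count table that encode the machinery of DNA replication: origin licensing factors, helicase subunits, polymerases, the sliding clamp with its loader, and fork protection proteins. They were chosen by symbol, and all 38 were found among the 16199 rows. The libraries came from the established human embryonic stem cell line H1, labelled as embryo tissue. Each library took 2 dishes of 15 cm. Genotypes were hemizygous for the S1344L substitution of Dicer (2 libraries, written pm/fs in the protocol), homozygous for it (2 libraries, pm/pm) and wild-type (2 libraries). Dicer is the enzyme that cuts microRNA precursors, the series text calls the substitution a cancer hotspot, and the mutant lines were made with CRISPR-Cas9. All 3 genotypes had been grown for 10 days without doxycycline and were exposed 2 times to ultraviolet light of 254 nm at 150 mJ/cm2. The labels do not say what doxycycline controlled in these cells, how many clones a mutant genotype stands for, or whether replicates are separate cultures. A p-value below therefore speaks of library-to-library spread alone, possibly technical.

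The assay was iCLIP: RNA is fixed to proteins by ultraviolet light, pulled down with 1 of them and sequenced. The protein here was Ago2, which microRNAs guide to the messages they repress. A count in such a library can follow the amount of a transcript or its binding, and these cannot be told apart in the table. Fewer cells of a type and less RNA per cell cannot be told apart either. The protocol also names a control antibody, whose libraries were not analysed here.

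Replication starts in a cell's G1 phase, when the origin recognition complex (ORC), CDC6 and CDT1 load the ring of MCM proteins on DNA, a step called licensing. Geminin, the product of GMNN, binds CDT1 and blocks a further round of loading. In S phase CDC45 and the GINS proteins turn the ring into the active helicase, and the polymerases, the clamp PCNA and its loader RFC build the new strands behind it. Most of these genes are textbook targets of the E2F transcription factors, which switch them on as cells leave G1. Embryonic stem cells are known for a short G1 and a large share of cells in S phase.

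Totals ran between 38.2 M and 52.9 M counts per library. The 38 genes together took 0.381% and 0.357% of the counts in the hemizygous libraries, 0.368% and 0.349% in the homozygous and 0.377% and 0.364% in the wild-type, replicate 1 before replicate 2. Levels are given in CPM, counts scaled to library size with TMM factors. The fewest counts of any member in a library were 216, for POLA2, and the most 20358, for MCM3. All 12 pluripotency markers had a row, and their summed level was 11510 to 12980 CPM in the mutant libraries, against 11390 and 10970 CPM in the wild-type. DNMT3B, PODXL and LIN28A had the highest levels in this sum. Against wild-type, 11 of the 12 lay above 0 in hemizygous and 9 in homozygous cells, where 49.1% and 49.3% of all genes did. DNMT3B, PODXL and ZFP42 lay below 0 in homozygous cells. Of markers of other cells, 4 of 12 for mesendoderm, 7 of 12 for neuroectoderm and 3 of 10 for trophoblast and amnion had a row. None was called by edgeR (adjusted p under 0.05), but levels differed. ZIC1 (neuroectoderm) had log2 fold changes against wild-type of 1.54 in hemizygous and 0.71 in homozygous cells. Those of FABP7 were 0.75 and 1.201, and of KDR (mesendoderm) 0.45 and 0.47. Of the 7 neuroectoderm markers, 1 lay below 0 in hemizygous and 3 in homozygous cells. For mesendoderm it was 1 of 4 in both. Both homozygous libraries lay below both hemizygous ones for 5 of the 7 neuroectoderm markers (10.4% of all genes) and above for 0 (11.0% of all genes). TBXT, EOMES, SOX17, PAX6, SOX1 and CDX2 were not analysed here. Any part of the measured markers' differences in the replication genes' levels was not tested.

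DICER1 itself, the mutated gene, was at 118 and 96.4 CPM in hemizygous, 129 and 118 CPM in homozygous and 169 and 126 CPM in wild-type libraries. Both hemizygous libraries lay below both wild-type ones (log2 fold change -0.46, unadjusted p = 0.0456, adjusted p = 1.00 by edgeR). A base change need not show in a count, and the labels do not say what the fs allele does to it, so these levels were not taken as a check of the genotypes. AGO2 was at 277 and 231 CPM, 268 and 199 CPM, and 218 and 222 CPM in the same order. Neither was called in any comparison.

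The promoters of CDC6, CDT1, MCM6 and RFC3 are shown because these 4 genes carry letters of the E2F site and each differ between replicates of a genotype in the values below. Each window runs from 250 bases before to 50 bases after the start of the gene, 5′ to 3′ on the gene's strand, as RefSeq gives it for GRCh38.p14. Capitals mark the E2F letters TTTCCCGC, TTTCGCGC, TTTGCCGC or TTTGGCGC on either strand. The windows are chr17:40287629-40287928 (plus strand) for CDC6, chr16:88803539-88803838 (plus) for CDT1, chr2:135876394-135876693 (minus) for MCM6 and chr13:33817899-33818198 (plus) for RFC3.
CDC6: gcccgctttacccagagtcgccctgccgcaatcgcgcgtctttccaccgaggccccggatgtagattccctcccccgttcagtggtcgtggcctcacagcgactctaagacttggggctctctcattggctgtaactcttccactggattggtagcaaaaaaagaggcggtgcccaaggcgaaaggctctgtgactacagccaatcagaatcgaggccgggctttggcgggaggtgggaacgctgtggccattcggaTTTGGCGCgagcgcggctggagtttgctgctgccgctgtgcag
CDT1: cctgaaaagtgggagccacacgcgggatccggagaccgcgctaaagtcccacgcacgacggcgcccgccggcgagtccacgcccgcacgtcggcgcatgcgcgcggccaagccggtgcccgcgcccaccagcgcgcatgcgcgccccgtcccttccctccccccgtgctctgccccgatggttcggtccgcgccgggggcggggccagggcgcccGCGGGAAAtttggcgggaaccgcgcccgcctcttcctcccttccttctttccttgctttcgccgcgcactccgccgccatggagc
MCM6: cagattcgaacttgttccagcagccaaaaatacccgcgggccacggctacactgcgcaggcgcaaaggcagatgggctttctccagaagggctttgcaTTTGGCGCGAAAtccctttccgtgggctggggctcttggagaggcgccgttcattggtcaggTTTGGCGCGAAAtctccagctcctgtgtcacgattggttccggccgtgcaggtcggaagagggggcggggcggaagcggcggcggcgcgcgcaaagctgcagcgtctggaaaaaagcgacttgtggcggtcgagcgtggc
RFC3: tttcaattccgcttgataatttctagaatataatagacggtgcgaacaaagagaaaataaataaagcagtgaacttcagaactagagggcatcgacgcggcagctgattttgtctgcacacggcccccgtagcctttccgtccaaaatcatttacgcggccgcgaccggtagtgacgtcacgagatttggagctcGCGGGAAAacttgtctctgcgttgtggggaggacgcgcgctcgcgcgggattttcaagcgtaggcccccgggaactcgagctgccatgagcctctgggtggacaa
CDC6, an ATPase that brings the MCM ring to ORC, has the letters at positions 8 to 15 after its start. In CDT1, the partner of CDC6 in loading, they lie at -35 to -28 on the other strand, and in RFC3, a clamp loader subunit, at -55 to -48 on the other strand. MCM6 has 2 stretches of TTTGGCGCGAAA, at -152 to -141 and at -90 to -79, in each of which matches on the 2 strands overlap. Of the 34 members with a promoter entry, 18 carried such letters in at least 1 window, or 52.9%, against 6.27% of the 11412 table genes with an entry and 3.31% of all 35116 windows. The CCAAT box, searched as CCAAT on both strands, was in windows of 22 of the 34 members (64.7%), against 42.6% of table genes. MCM4, MCM5, GINS4 and POLD3 had no entry. A match is a run of letters, not a shown binding site.

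**Figure D1:**
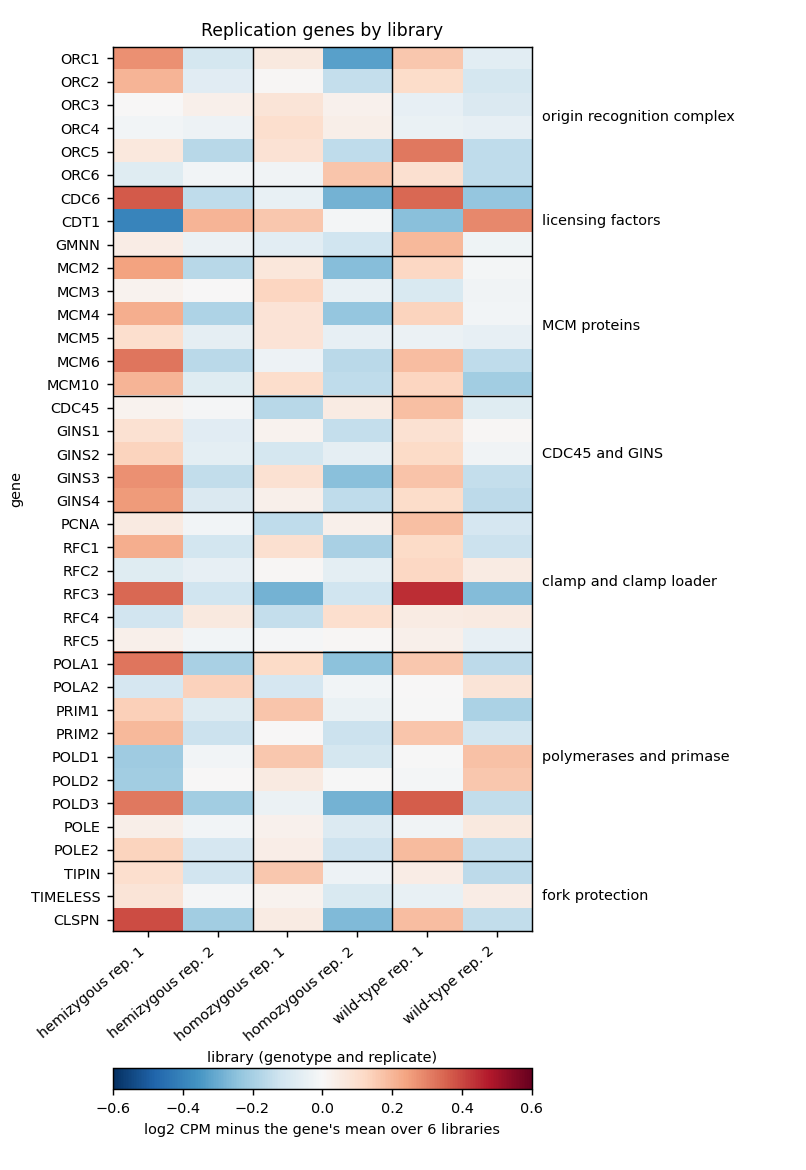
Each row is a replication gene, grouped by role, and each column a library. Colour gives log2 CPM minus the gene's mean over the 6 libraries, from -0.6 (blue) to 0.6 (red). Replicate 1 columns of the hemizygous and wild-type genotypes are mostly red and replicate 2 columns mostly blue, with CDT1 the other way round.

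The question put first is whether the replication genes differ in hemizygous cells. None passed the test. In hemizygous against wild-type libraries, edgeR's quasi-likelihood test called 0 of the 38 genes, where it called 0.00% of all 16199. DESeq2 also called 0 of the 38 in each of the 3 comparisons. At an unadjusted p under 0.05, 0 members passed, against 0.870% of all genes. The log2 fold changes were small and even in sign: 19 members lay above 0 and 19 below, with a median of 0.0004 for the members and -0.0026 for all genes. Values ran between -0.20, for POLD1, and 0.13, for PRIM1, and 37 of the 38 lay within 0.2 of 0, as did 77.8% of all genes. The 95% intervals of all 38 lay within a 2-fold change either way, and those of 30 within a 1.5-fold change. The outermost bounds were -0.71 for CDT1 and 0.66 for CLSPN.

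The catalytic subunit of DNA polymerase delta, POLD1, had the smallest p of the members in this comparison. It stood at 75.1 and 85.9 CPM in hemizygous libraries, against 86.9 and 98.4 CPM in wild-type, so both hemizygous libraries lay below both wild-type ones. The log2 fold change was -0.20 (SE 0.16, unadjusted p = 0.239, adjusted p = 1.00 by edgeR's quasi-likelihood test). Its partner subunit POLD2 was at 95.3 and 110.3 CPM in hemizygous, against 109 and 123 CPM in wild-type libraries, which overlap narrowly (log2 fold change -0.17, SE 0.14). RFC2, a small clamp loader subunit, was at 58.1 and 59.0 CPM in hemizygous libraries and 66.7 and 63.1 CPM in wild-type (log2 fold change -0.15, SE 0.12). ORC5, an ORC subunit, had a log2 fold change of -0.15 (SE 0.21), with wild-type replicate 1 at 23.0 CPM and the other 5 libraries between 16.4 and 19.6 CPM.

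On the higher side stood PRIM1, the catalytic primase subunit that makes the RNA starts of new strands, at 29.0 and 24.9 CPM in hemizygous against 26.2 and 23.0 CPM in wild-type libraries (log2 fold change 0.13, SE 0.16). The groups overlapped for it. ORC3 was at 84.8 and 86.5 CPM in hemizygous and 82.0 and 79.8 CPM in wild-type libraries (log2 fold change 0.08, SE 0.12). The log2 fold change of GINS4 was 0.11 (SE 0.17), and MCM10, which helps the helicase start, had 0.10 (SE 0.18). GINS4, a helicase subunit, was at 63.9 and 50.3 CPM in hemizygous, against 57.8 and 48.0 CPM in wild-type libraries. MCM10 was at 59.3 and 48.9 CPM in hemizygous and 56.2 and 44.5 CPM in wild-type libraries, so the groups overlapped for both genes. Both hemizygous libraries were above both wild-type ones for 3 members, ORC3, ORC4 and MCM3, against 8.13% of all genes. They were below for 2, RFC2 and POLD1, against 9.21% of all genes. Set against these shares, 3 and 2 of 38 are 7.89% and 5.26%.

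The same question was asked of homozygous cells. Again 0 of 38 members were called by edgeR's quasi-likelihood test, against 0.00% of all genes, and 0 had an unadjusted p under 0.05, against 2.69% of all genes. Here 28 members lay below 0 and 10 above. Their median was -0.07 on the log2 scale, against -0.0034 for all genes, of which 49.3% lay above 0. This median turned to 0.05 without wild-type replicate 1, lay near 0 without homozygous replicate 2, and was -0.15 when wild-type replicate 2 was left out and -0.14 when homozygous replicate 1 was. Each of these fits sets unequal numbers of replicate 1 and replicate 2 libraries against each other. Measured from each gene's mean over the 6 libraries, the member median was 0.04 in homozygous and 0.11 in wild-type replicate 1. In replicate 2 it was -0.11 in homozygous and -0.08 in wild-type cells. Within a replicate number, 17 of the 38 members (44.7%) were lower in the homozygous library both times, against 28.7% of all genes, among them ORC1, CDC6, GMNN, MCM2, MCM4, MCM6 and POLD3. In both numbers 4 members (10.5%) were higher, against 27.0% of all genes: ORC3, ORC4, PRIM1 and TIPIN. These counts were made after the values were seen, were not tested, and rest on replicate numbers for which the labels state no pairing. All 38 intervals lay within a 2-fold change and 26 within a 1.5-fold change. Both homozygous libraries were above both wild-type ones for 2 members, ORC3 and ORC4 (14.2% of all genes), and below for 4, GMNN, GINS2, RFC2 and POLA2 (13.6% of all genes).

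Geminin, the inhibitor of licensing, had the smallest p. GMNN was at 62.6 and 60.1 CPM in homozygous libraries, against 74.9 and 64.2 CPM in wild-type. Its homozygous libraries were the lowest of the 6, and the log2 fold change was -0.18 (SE 0.13, 95% interval -0.50 to 0.14, unadjusted p = 0.223). RFC3 stood at 41.5 and 46.5 CPM in homozygous libraries, against 68.9 and 42.2 CPM in wild-type. Wild-type replicate 1 alone was high, and the log2 fold change of -0.34 (SE 0.26) became 0.07 without that library. POLD3, the subunit of polymerase delta that helps hold it to the clamp, was at 36.3 and 30.6 CPM in homozygous and 47.8 and 33.6 CPM in wild-type libraries (log2 fold change -0.28, SE 0.24), which overlap. CDC6 was at 84.9 and 72.0 CPM in homozygous and 111 and 74.6 CPM in wild-type libraries (log2 fold change -0.25, SE 0.25), also overlapping. Without wild-type replicate 1, which leaves the replicate numbers unequal, the values were 0.0012 for POLD3 and 0.08 for CDC6. Within each replicate number both genes were lower in the homozygous than in the wild-type library.

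Higher values were again small. PRIM1 was at 29.4 and 25.5 CPM in homozygous libraries, against 26.2 and 23.0 CPM in wild-type (log2 fold change 0.16, SE 0.16). ORC3 was at 89.2 and 86.3 CPM in homozygous libraries, with the wild-type values given above (log2 fold change 0.12, SE 0.12). For ORC4 the values were 59.3 and 56.9 CPM in homozygous, against 53.8 and 53.5 CPM in wild-type libraries (log2 fold change 0.11, SE 0.12). MCM3, a subunit of the ring, was at 422 and 374 CPM in homozygous and 363 and 380.5 CPM in wild-type libraries (log2 fold change 0.10, SE 0.13). The hemizygous and homozygous comparisons share the same wild-type libraries, so ORC3 and ORC4, above wild-type in both, are not independent sightings. ORC3 and ORC4 also overlap other genes of the table (AKIRIN2, ACVR2A and MBD5), as do ORC1, GINS2, RFC5, POLA1 and PRIM2. The use of strand is not given in the sources used here, so these 7 counts may hold reads of a neighbour.

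**Figure D2:**
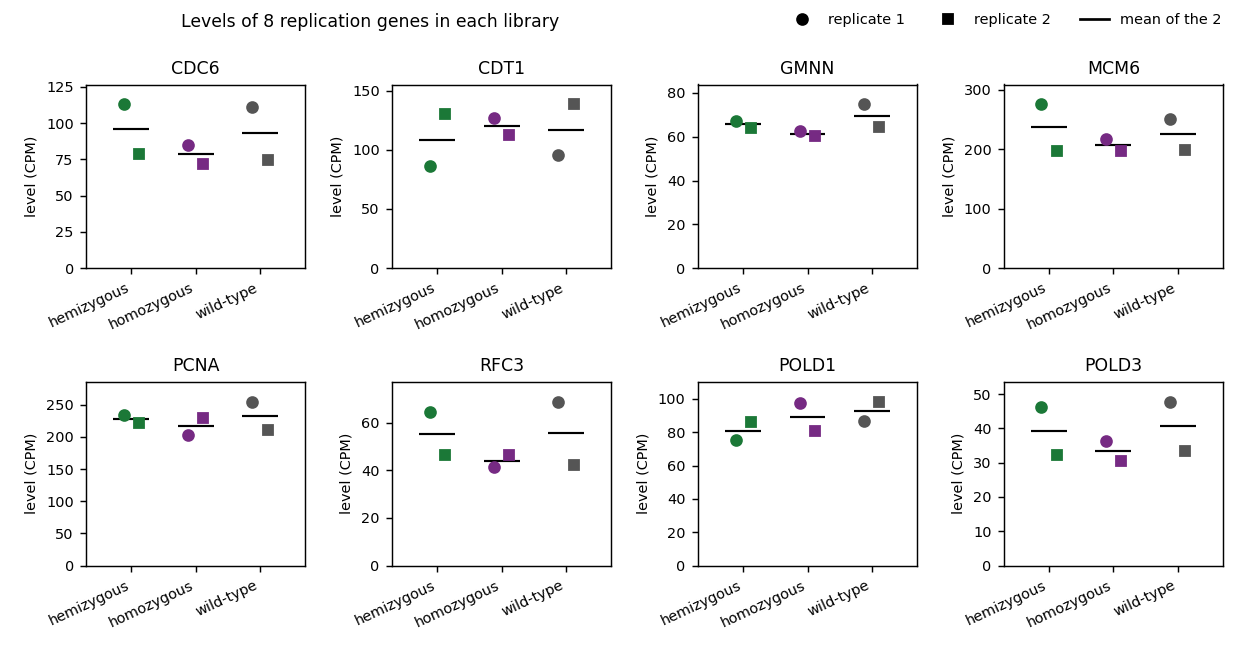
Levels in CPM of 8 replication genes in each library, by genotype, on axes that start at 0. Circles are replicate 1, squares replicate 2 and bars the mean of the pair. For CDC6, MCM6, RFC3 and POLD3 the circle lies well above the square in hemizygous and wild-type cells, and for CDT1 and POLD1 below it.

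Homozygous was then set against hemizygous cells. Of the 38 members 0 were called by edgeR's quasi-likelihood test (0.00% of all genes), and 0 had an unadjusted p under 0.05 (0.765% of all genes). The median log2 fold change was -0.07 with 26 members below 0, against a median of -0.0004 over all genes, and it was 0.04 without hemizygous replicate 1 and 0.02 without homozygous replicate 2, fits that are unequal in replicate numbers in the same way. Within a replicate number, 20 members (52.6%) were lower in the homozygous library both times and 5 (13.2%) higher, against 30.2% and 27.3% of all genes. Both sets of counts use the same homozygous libraries. RFC3 was at 41.5 and 46.5 CPM in homozygous, against 64.3 and 46.5 CPM in hemizygous libraries (log2 fold change -0.33, SE 0.26). Hemizygous replicate 1 stood apart and the other library of that genotype was level with the homozygous. CDC6 was at 84.9 and 72.0 CPM in homozygous and 113 and 78.7 CPM in hemizygous libraries (log2 fold change -0.29, SE 0.25). Without hemizygous replicate 1 the log2 fold change of CDC6 was -0.004 and that of RFC3 -0.08.

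ORC1, an ATPase subunit of ORC, had -0.22 (SE 0.20), and stood at 71.4 and 54.7 CPM in homozygous against 83.1 and 63.9 CPM in hemizygous libraries. MCM6 had -0.19 (SE 0.20), with 217 and 197 CPM in homozygous against 276 and 198 CPM in hemizygous libraries. POLD1 (0.15, SE 0.16), POLD2 (0.12, SE 0.14), ORC6 (0.12, SE 0.15) and ORC4 (0.09, SE 0.12) were the members with the smallest p on the higher side. ORC6, the smallest ORC subunit, was at 70.4 and 80.3 CPM in homozygous and 68.1 and 70.8 CPM in hemizygous libraries, which overlap. Both homozygous libraries lay above both hemizygous ones for 1 member, ORC4 (11.0% of all genes), and below for 2, GMNN and RFC3 (10.4% of all genes). For RFC3 the nearest values, homozygous replicate 2 and hemizygous replicate 2, both round to 46.5 CPM. All 38 intervals lay within a 2-fold change, the widest reaching -0.96 for RFC3.

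**Figure D3:**
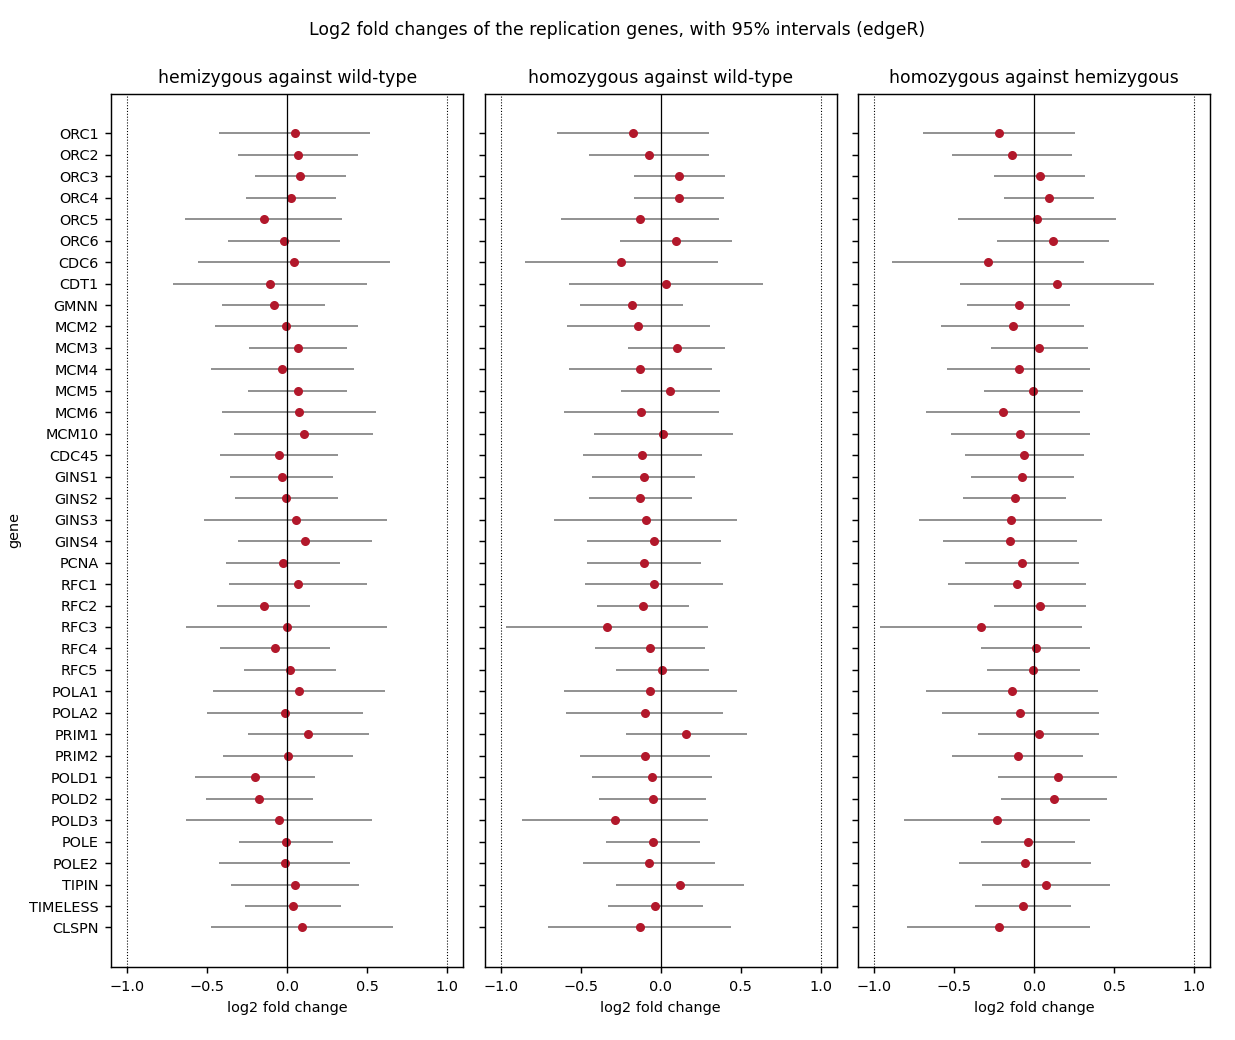
Log2 fold changes of the 38 genes (points) in the 3 comparisons, with 95% intervals from edgeR (bars). Dotted lines mark a 2-fold change either way. Every interval crosses 0 and stays inside the dotted lines.

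By role, the 6 ORC genes had median log2 fold changes of 0.03 in hemizygous and 0.01 in homozygous cells against wild-type. MCM2, an MCM ring subunit, was at 157 ± 31.1 CPM (SD, n = 2) in hemizygous, 143 ± 22.6 in homozygous and 158 ± 10.4 in wild-type libraries. MCM5 was at 258 ± 19.7, 257 ± 16.4 and 246 ± 1.64 CPM (SD, n = 2 each) in the same order. MCM4 was at 342 ± 67.1, 320.1 ± 49.7 and 349.7 ± 25.7 CPM. Of the MCM genes, MCM2, MCM3, MCM4, MCM5, MCM6 and MCM10 were summed, without the ring subunit MCM7. These 6 summed to 1567 and 1307 CPM in hemizygous, 1477 and 1275 CPM in homozygous and 1451 and 1351 CPM in wild-type libraries. The sum was thus higher in replicate 1 of each pair. MCM3 itself was lower in wild-type replicate 1, at 363 CPM against 380.5 CPM in replicate 2.

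CDC45, which joins the ring to make the helicase, was at 25.4 ± 0.307 CPM (SD, n = 2) in hemizygous, 24.4 ± 2.60 in homozygous and 26.4 ± 3.25 in wild-type libraries. The 4 GINS genes and CDC45 all lay below 0 in homozygous against wild-type cells, between -0.13 and -0.04, and all 5 lay below 0 against hemizygous cells, between -0.15 and -0.06. None of these passed the test, and the 2 comparisons share the homozygous libraries. PCNA, the clamp that tethers polymerases, was at 228 ± 8.23 CPM in hemizygous, 216 ± 19.4 in homozygous and 232 ± 31.7 in wild-type libraries. RFC5, a clamp loader subunit, was the steadiest member, between 40.9 and 43.3 CPM in all 6 libraries, a ratio of 1.06 between highest and lowest.

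POLE, the catalytic subunit of the leading-strand polymerase, was nearly as even at 149.7 ± 3.63 CPM (SD, n = 2) in hemizygous, 146 ± 7.62 in homozygous and 151 ± 5.93 in wild-type libraries. POLA1, the catalytic subunit of the polymerase that extends primers, was at 66.7 ± 16.6, 60.6 ± 10.6 and 63.4 ± 9.81 CPM in the same order. The fork protection genes differed among themselves in spread. TIMELESS was at 156 to 175 CPM over the 6 libraries, and its partner TIPIN at 15.0 to 18.7 CPM. CLSPN, which encodes the checkpoint mediator claspin, ran between 32.5 and 51.3 CPM, a ratio of 1.58. It was at 51.3 and 33.8 CPM in hemizygous, 40.5 and 32.5 CPM in homozygous and 44.6 and 35.3 CPM in wild-type libraries, so replicate 1 was the higher of each pair. The widest ratios were those of RFC3 (1.66) and CDT1 (1.60).

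The medians of the 38 genes differed more between replicate numbers than between genotypes. Replicate 1 was above replicate 2 for 30 of 38 members in hemizygous, 30 in homozygous and 30 in wild-type cells, against 49.3%, 51.1% and 50.8% of all genes. The median log2 difference was 0.20, 0.16 and 0.21 for the members, and -0.01, 0.01 and 0.01 for all genes. In all 3 genotypes at the same time, 22 of the 38 members (57.9%) were higher in replicate 1, against 29.8% of all genes. RFC4 and POLA2 were the 2 members lower in replicate 1 in every genotype (5.26%), against 28.3% of all genes. Each difference sets 1 library against 1, the difference over the 3 genotypes together was not tested here, and the labels do not say what a replicate number stands for.

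CDT1 went against most of the list. It stood at 86.3 and 131 CPM in hemizygous, 127 and 112 CPM in homozygous and 95.4 and 139 CPM in wild-type libraries, replicate 1 before replicate 2. Replicate 1 was thus the lower library in hemizygous and wild-type cells, with log2 differences (replicate 1 minus replicate 2) of -0.60 and -0.54, and the higher one in homozygous cells, with 0.17. CDC6 did the reverse in hemizygous and wild-type cells, where its replicate 1 was higher by 0.52 and 0.58, and it was higher by 0.24 in homozygous cells. The ratio of CDT1 to CDC6 counts was 0.764 in hemizygous and 0.857 in wild-type replicate 1, and between 1.5 and 1.86 in the other 4 libraries, homozygous replicate 1 among them. The ratio, in which gene length cancels between libraries, was chosen after the values were seen.

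POLD1 and POLD2 had the same sign as CDT1 in each genotype. The log2 difference was -0.19 for POLD1 and -0.21 for POLD2 in hemizygous, 0.27 and 0.06 in homozygous and -0.18 and -0.17 in wild-type cells. Their partner POLD3 was higher in replicate 1 by 0.52, 0.25 and 0.51 in hemizygous, homozygous and wild-type cells. It thus ran against POLD1 and POLD2 in hemizygous and wild-type cells, and with them in homozygous cells. Each of these differences sets 1 library against 1 and was not tested. Within the clamp loader, the log2 difference of RFC3 was 0.47 in hemizygous, -0.16 in homozygous and 0.71 in wild-type cells, while RFC5 differed by at most 0.08 in any genotype. CLSPN had the widest difference of the hemizygous libraries, 0.60.

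**Figure D4:**
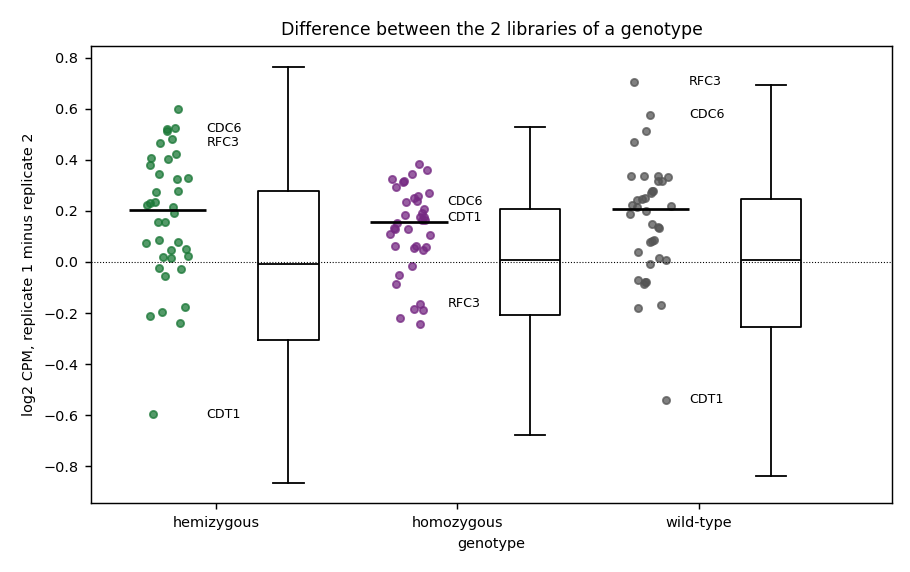
Log2 CPM of replicate 1 minus replicate 2 within each genotype. Points are the 38 replication genes with a bar at their median, and boxes show all genes (quartiles, whiskers from the 5th to the 95th percentile). Member medians lie at 0.20, 0.16 and 0.21, those of all genes near 0, and CDT1 lies lowest in hemizygous and wild-type cells.

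Homozygous replicate 1 was nearer to the mean of the replicate 2 libraries of the other genotypes than to that of their replicate 1 libraries for 21 of 38 members. This was close to the share of all genes, 57.3%, so it was not particular to the replication genes. CDC6, CDT1, MCM6, RFC3, POLD1 and POLD3 were among the 21. Hemizygous replicate 1 held the highest level of 17 of the 38 members (23.8% of all genes), and homozygous replicate 2 the lowest level of 15 (22.4% of all genes). The 16 fibroblast and stromal markers with a row summed to 3030 and 2529 CPM in hemizygous, 2528 and 2417 CPM in homozygous and 3026 and 2508 CPM in wild-type libraries, and their part in the replication genes' differences was not tested. COL3A1, LUM and DCN were not analysed here. In homozygous against wild-type libraries 13 of the 16 lay below 0, with a median log2 fold change of -0.38. In hemizygous against wild-type libraries 8 lay above 0 and 8 below, with a median of -0.01. Replicate 1 was the higher library for 13 of the 16 in hemizygous, 10 in homozygous and 13 in wild-type cells. CDKN1A, which encodes an inhibitor of the kinases that start S phase, was, like RFC3, highest in wild-type and hemizygous replicate 1 and lowest in homozygous replicate 1, at 75.7 and 45.0 CPM in hemizygous, 32.9 and 46.2 CPM in homozygous and 112 and 44.6 CPM in wild-type cells.

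Length of the gene and promoter letters were also set beside the difference between replicates. Spearman's rho across the 38 members between that difference and the span of the gene was 0.31 in hemizygous, 0.16 in homozygous and 0.26 in wild-type cells. Over the 14750 rows with a RefSeq symbol it was 0.33, 0.24 and 0.24. These are descriptions across genes that share the same libraries. The 18 members with E2F letters had median differences of 0.20, 0.16 and 0.21 in hemizygous, homozygous and wild-type cells, and the 16 without 0.07, 0.12 and 0.20. Replicate 1 was the higher library for 15, 14 and 14 of the 18 with letters in the same order. Of the 16 without letters it was the higher for 11, 12 and 12, so most members of both sets were higher in replicate 1. CDT1, which has the letters, was among the exceptions in hemizygous and wild-type cells. Between genotypes the medians with letters were -0.01 in hemizygous and -0.10 in homozygous cells against wild-type, and without letters 0.01 and -0.05.

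Other genes of the pathway were taken from 6 lists. Of 27 further replication factors, 9 genes of nucleotide supply, 22 E2F and G1/S regulators, 10 replication checkpoint genes, 9 genes of chromatin assembly at the fork and 17 mitotic genes with a row, 0 were called in any of the 3 comparisons by edgeR's quasi-likelihood test. At an unadjusted p under 0.05 in edgeR, E2F8 and CENPF passed in homozygous against wild-type cells, where 2.69% of all genes did. RNASEH2A passed in homozygous against hemizygous cells, where 0.765% of all genes did. Its level was low, at most 1.37 CPM in any library. MCM7, the ring subunit that is not among the 38, was at 353 and 356 CPM in hemizygous, 374.6 and 349.9 CPM in homozygous and 384 and 399 CPM in wild-type libraries, so that all 4 mutant libraries lay below both wild-type ones. Among the further replication factors the medians were 0.01 and 0.0012 in hemizygous and homozygous cells against wild-type. POLE3, an accessory subunit of polymerase epsilon, was at 42.0 and 45.6 CPM in hemizygous and 42.5 and 43.9 CPM in homozygous libraries, against 48.4 and 52.6 CPM in wild-type. Its log2 fold changes were -0.20 and -0.23, neither called.

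Nucleotide supply genes had a median of -0.06 in hemizygous and -0.22 in homozygous cells against wild-type. In homozygous cells 7 of 9 lay below 0 and 2 above, where 49.3% of all genes lay above 0. For 7 of the 9, wild-type replicate 1 was higher than wild-type replicate 2, with a median log2 difference of 0.33 over the list. TK1, thymidine kinase, was at 38.7 and 37.8 CPM in homozygous, against 44.8 and 44.4 CPM in wild-type libraries (log2 fold change -0.22). DCK, which phosphorylates deoxycytidine, was at 25.1 and 23.6 CPM in homozygous, against 30.9 and 26.4 CPM in hemizygous libraries (log2 fold change -0.23). E2F8, a repressor among the E2F factors, was at 12.3 and 13.5 CPM in homozygous, against 20.3 and 17.1 CPM in wild-type libraries. Its log2 fold change of -0.53 had an unadjusted p = 0.0168 and an adjusted p = 1.00 by edgeR. CCNE2, of the same list, was at 7.90 and 7.42 CPM in hemizygous, against 6.81 and 4.14 CPM in wild-type libraries. Its log2 fold change there was 0.48 (SE 0.27), not called. Of that list of 22 genes, 8 lay above 0 and 14 below in hemizygous against wild-type cells. CHAF1B, a subunit of the histone chaperone at the fork, had -0.24 in homozygous cells.

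Mitotic genes had medians of -0.04 in hemizygous and 0.04 in homozygous cells against wild-type. CENPF, a kinetochore protein, was at 575 and 483.5 CPM in homozygous, against 329 and 442 CPM in wild-type libraries (log2 fold change 0.46, unadjusted p = 0.0390, adjusted p = 1.00 by edgeR). In hemizygous libraries it was at 505 and 504 CPM. Between the mutant genotypes RNASEH2A, a subunit of the nuclease that removes RNA from DNA, was at 1.37 and 1.33 CPM in homozygous and 0.443 and 0.892 CPM in hemizygous libraries (log2 fold change 0.99, unadjusted p = 0.0387, adjusted p = 1.00 by edgeR). RAD17, which loads the checkpoint clamp, was at 1.30 and 1.52 CPM in hemizygous, against 4.17 and 1.66 CPM in wild-type libraries, with wild-type replicate 1 alone high. Replicate 1 was higher for 6 of the 17 mitotic genes in hemizygous, 13 in homozygous and 6 in wild-type cells.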

How the data were processed

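The values are raw counts per gene from the authors' deposited table, whole numbers and not normalized. Reads were placed on hg38, per the submitters' processing notes. Not given in the sources used here are the aligner, counter, annotation, strand and any molecular identifiers, so overlapping genes and near-identical copies may share reads. A pseudogene symbol exists for ORC1, PCNA, RFC3, RFC5, POLD2 and TIPIN. Depth was 38.2 M to 52.9 M counts per library.

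Counts were analysed in R 4.3.3 with edgeR 4.0.16 (TMM factors, filterByExpr, glmQLFit and glmQLFTest). All 6 libraries entered 1 fit with a mean per genotype, and p-values were adjusted by Benjamini-Hochberg over all 16199 rows, with calls at an adjusted p under 0.05. The filter removed no row, and all 38 replication genes passed it. Intervals are 95% intervals of the fit. Alternatives were DESeq2 1.42.0, other scalings and filters, a replicate block and leaving out each library. The fit was also run on simulated counts, drawn for each library apart with the spread fitted to these data. Those counts held no difference shared by a replicate number, and no result here rests on them. The replication genes and the lists were chosen with earlier results of these data known. Named for each comparison were the 4 replication genes with the smallest unadjusted p in each direction, a set of 10 landmark genes whatever their values, and up to 3 genes of each pathway list. MCM7 was added as the ring subunit missing from the 38. A gene of the nucleotide supply list is not reported here, and its list was summarised without it. Promoter windows came from RefSeq (GRCh38.p14).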

Additional observations from a re-analysis of the deposited data

How the results depend on the processing

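The count of replication genes called was 0 in each comparison under all 15 alternatives, and the smallest adjusted p of any member under any of them was 0.411. Among all 16199 genes, DESeq2 called 7 in hemizygous and 10 in homozygous cells against wild-type, and 10 in homozygous against hemizygous cells, where edgeR called 0. Leaving out 1 library gave edgeR counts of 0 to 2, 0 to 1 and 0 to 3 in the same order. The replicate numbers are labels only. The log2 differences between replicates 1 and 2 correlated across genes at 0.74 for hemizygous and wild-type, 0.35 for homozygous and wild-type and 0.47 for homozygous and hemizygous pairs. With the replicate block edgeR called 1, 0 and 1 of all genes and 0 replication genes. The median log2 fold change of the replication genes in homozygous against wild-type cells was -0.15 to 0.054 when 1 library was left out. With 2 libraries a genotype, a left-out library leaves 1, assumed to vary like the others. Only the replication genes named by the rule above, smallest p and landmarks, were followed 1 by 1 over these fits, which made 50 fold changes. Of these 50, 32 changed sign when 1 library was left out, which also makes the replicate numbers unequal between the genotypes. With the replicate block the median log2 fold change of the replication genes was 0.006 in hemizygous and -0.071 in homozygous cells against wild-type and -0.074 in homozygous against hemizygous cells, and that of CDC6 in homozygous against wild-type cells was -0.22. In hemizygous against wild-type cells the log2 fold changes that changed sign ran over these fits as follows: ORC1 -0.15 to 0.22, ORC5 -0.35 to 0.11, CDC6 -0.23 to 0.37, CDT1 -0.44 to 0.20 and GMNN -0.18 to 0.035. Further ranges in that comparison were MCM2 -0.21 to 0.18, MCM5 -0.0069 to 0.14, MCM10 -0.045 to 0.29, CDC45 -0.16 to 0.085 and GINS4 -0.063 to 0.27. The last of that comparison were PCNA -0.15 to 0.12, POLE -0.045 to 0.042 and CLSPN -0.23 to 0.36. In homozygous against wild-type cells the log2 fold changes that changed sign ran over these fits as follows: ORC1 -0.38 to 0.0041, CDC6 -0.49 to 0.079, CDT1 -0.20 to 0.34, MCM2 -0.31 to 0.012 and MCM5 -0.0076 to 0.12. Further ranges in that comparison were CDC45 -0.23 to 0.026, PCNA -0.22 to 0.050, RFC3 -0.63 to 0.069, POLD3 -0.50 to 0.0012 and POLE -0.10 to 0.0064. That of CLSPN was -0.30 to 0.055. In homozygous against hemizygous cells the log2 fold changes that changed sign ran over these fits as follows: CDT1 -0.12 to 0.47, MCM2 -0.32 to 0.083, MCM5 -0.082 to 0.076, MCM6 -0.41 to 0.068 and CDC45 -0.17 to 0.043. Further ranges in that comparison were PCNA -0.17 to 0.013, POLE -0.091 to 0.016 and CLSPN -0.49 to 0.11. MCM5 in homozygous against hemizygous cells was also 0.022 with upper-quartile scaling and 0.012 with plain library sizes.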
